A study of Bos taurus with 2 samples.

Results

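The genes described here are the bovine MHC class I and class II genes, the molecules that show peptides to T cells, measured in the muzzle of native Korean cows (HanWoo). They were found by their gene symbol among the noncontrol probes of 2 Agilent 1-colour bovine arrays, and 24 of 43639 probes carried 8 of the 10 genes sought, out of 9647 genes named on the array: JSP.1, BOLA, BOLA-DQA5, BOLA-DQB, BOLA-DQB1, BOLA-DRA, BOLA-DMB and CD74. No probe was matched to BOLA-DRB3 or BOLA-DMA, which were not analysed here. The group was chosen by symbol with its ratios between the cows already known, since some of its probes had stood out, so every ratio below is a description and none was tested. One array held RNA from the nose of a cow with a light muzzle (labelled yellow, called the light cow) and the other RNA from that of a cow with a dark muzzle (labelled black, the dark cow), both female HanWoo 30 months old. Per the methods, each was picked as a typical animal of its color, and the tissue was frozen whole after slaughter, with no cell type isolated and no treatment named. With 1 cow per muzzle color there are no replicates and muzzle color cannot be told apart from animal, so that precision is limited by having 2 arrays.

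MHC class I molecules consist of a heavy chain and beta-2-microglobulin. Almost all nucleated cells carry them and use them to show peptides made in the cytosol to CD8+ T cells. Class II molecules are pairs of an alpha and a beta chain, DR or DQ in cattle, that dendritic cells, macrophages and B cells use to show peptides from engulfed material to CD4+ T cells. CD74, the invariant chain, fills the groove of a new class II pair until DM exchanges its last fragment for a peptide. Class I heavy chains and DQ chains are highly polymorphic, and the number of such genes on a chromosome also varies among cattle, whereas the DR alpha chain, DM and CD74 vary little.

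Each value is the processed signal of 1 spot, an intensity from which the scanner software had subtracted the background, given with the error that the software assigned to it. That error was about 10% for bright spots and is technical only. For the log2 ratio, the log2 signal was taken relative to the 75th percentile of its array, an intensity of 1144 in the light cow and 1137 in the dark cow, and the level of the light cow was subtracted from that of the dark cow. Of all noncontrol spots, 78.8% were well above background for the light cow and 81.9% for the dark cow, and 0 spots were saturated. For a probe well above background in only 1 cow, the ratio is a lower bound against the lowest signal so marked on the other array. That signal was 20.8 for the light cow, and the probe's own signal was used where it was higher. Such a bound holds for this background subtraction only, and other corrections can give smaller values. None of the MHC spots was marked as an outlier, and the probes printed within 2 rows and 2 columns of them had median log2 ratios between -0.27 and 0.33.

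Of the 24 MHC probes, 8 (33.3%) were at least 2-fold higher in the dark cow and 3 (12.5%) at least 2-fold lower, while 13 lay between. Of all 36630 probes with a ratio or bound, 9.76% were at least 2-fold higher and 7.17% at least 2-fold lower. The 8 higher probes belonged to JSP.1, BOLA-DQA5, BOLA-DQB, BOLA-DQB1 and CD74, and the 3 lower probes to JSP.1 and BOLA, both class I heavy chains. Among the MHC probes, the dark cow alone had a detected signal for 5 (20.8%) and the light cow alone for 0. Of all 43639 probes, 2260 (5.18%) were detected in the dark cow alone and only 922 in the light cow alone. The 19 probes measured in both cows had a median log2 ratio of 0.40, against 0.0038 over all 33451 such probes. Of the 19, 15 were above 0, 5 of these being probes of CD74. With a median so near 0, about as many of all probes lay above 0 as below it.

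**Figure D1:**
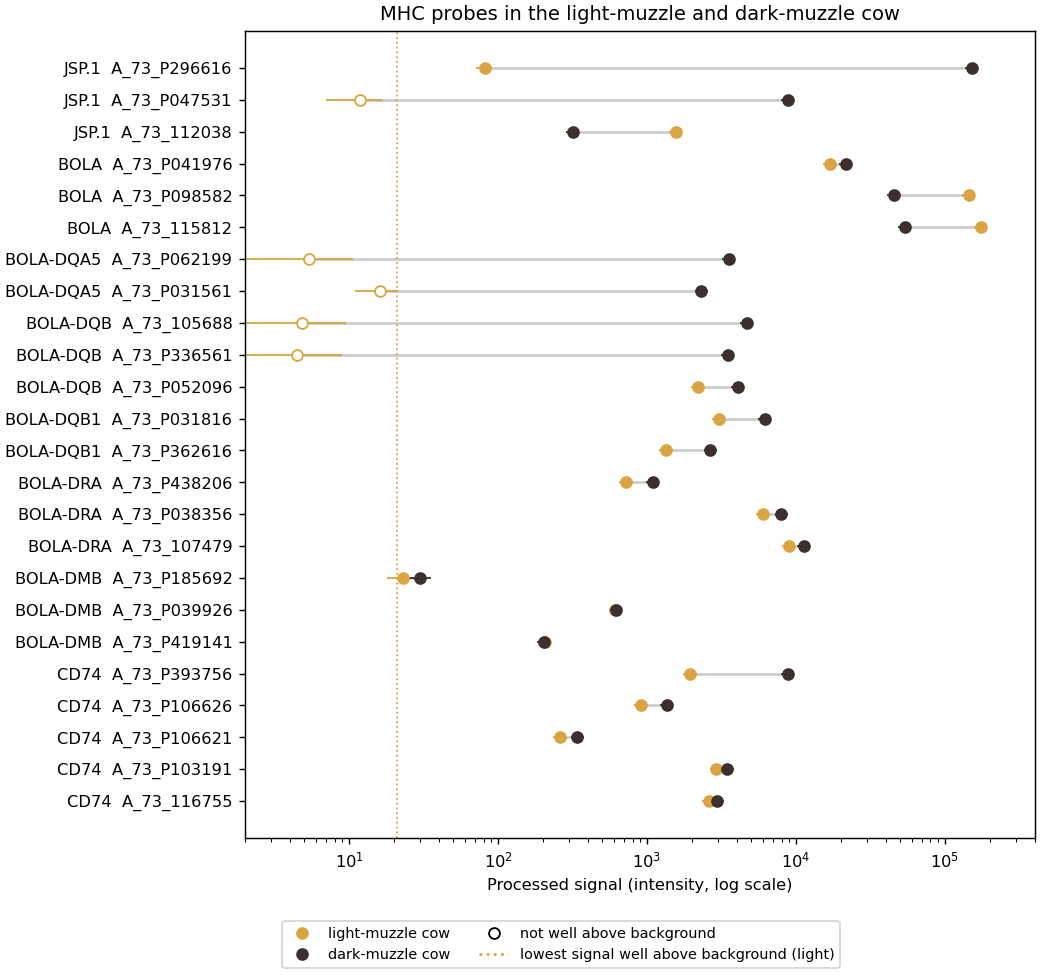
Processed signal (intensity, log scale) of each MHC probe in the light cow (yellow) and the dark cow (dark). Bars are the error assigned by the scanner software, cut at the left edge of the plot, open circles were not well above background, and the dotted line is the lowest signal well above background in the light cow (20.8). The 5 open circles, all in the light cow, belong to JSP.1, BOLA-DQA5 and BOLA-DQB.

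JSP.1 encodes a class I heavy chain, and its 3 probes, all designed to the transcript NM_001040498, did not point the same way. Probe A_73_P296616 had a signal of 81.1 ± 9.93 in the light cow and of 150916 ± 15092 in the dark cow. Its log2 ratio was 10.87 ± 0.23 (a 1871-fold difference), rank 1 of the 33451 ratios. Before background subtraction the median pixel of that spot read 114.5 over a local background of 24 in the light cow, and 122046 in the dark cow. This probe was thus dim but above the detection limit in the light cow, and bright but not saturated in the dark cow. Under normexp background correction, in which low signals are raised by an offset of 50, the ratio was 9.91.

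Probe A_73_P047531 of JSP.1 behaved likewise, with a signal of 8803 ± 880 in the dark cow and of 11.8 ± 4.84, not well above background, in the light cow. The dark cow was higher by at least 425-fold, a log2 bound of 8.73 that became 6.85 under normexp. The third probe, A_73_112038, went the other way. Its signal was 1568 ± 157 in the light cow and 317 ± 32.2 in the dark cow, a log2 ratio of -2.30 ± 0.21 (4.92-fold lower), and it kept that direction under every normalization, background correction and filter tried, between -2.32 and -2.01. The ratios of A_73_P296616 and A_73_112038 lay 13.17 log2 units apart. A shift of either array as a whole leaves that difference as it is.

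BOLA is a further class I heavy chain gene, next to JSP.1 among the MHC genes looked up in the gene order of the ARS-UCD2.0 assembly. A pair of its 3 probes to NM_001038518 was lower in the dark cow by nearly the same amount. Probe A_73_115812 read 174207 ± 17421 in the light cow and 54072 ± 5407 in the dark cow, and A_73_P098582 read 144134 ± 14413 and 45202 ± 4520. Their log2 ratios were -1.68 ± 0.20 and -1.66 ± 0.20, or 3.20-fold and 3.17-fold lower. The third, A_73_P041976, was not lower: its signal was 16953 ± 1695 in the light cow and 21639 ± 2164 in the dark cow, a log2 ratio of 0.36 ± 0.20. Over the 5 class I probes measured in both cows the median log2 ratio was -1.66, but these probes ranged from -2.30 to 10.87, and with the dim JSP.1 probe counted at its unfiltered ratio the median was -0.65. Class I genes are alike in sequence, so that a probe may also have bound RNA of related genes; the sequences of the probes and of the alleles of these cows were not compared here.

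**Figure D2:**
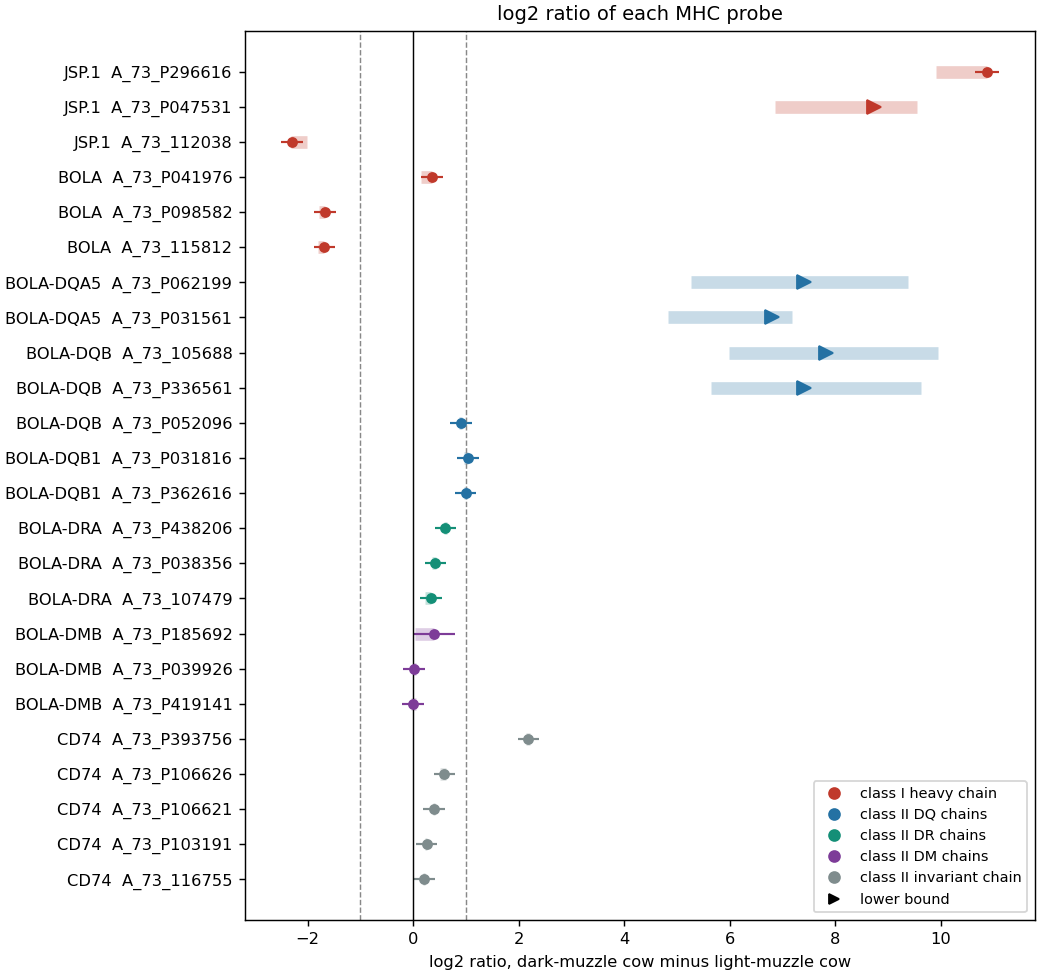
The log2 ratio of each MHC probe, dark cow minus light cow, with points for measured ratios (bars: technical error of both signals) and triangles for lower bounds. Pale bands span the reported value and all alternative processing choices tried, and dashed lines mark 2-fold. Class I probes lie between -2.30 and 10.87, whereas the BOLA-DRA and BOLA-DMB probes lie between -0.01 and 0.61.

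The DQ chains form one of the classical class II pairs, BOLA-DQA5 being an alpha chain and BOLA-DQB and BOLA-DQB1 beta chains. Both probes of BOLA-DQA5 (NM_001012675) were well above background in the dark cow only. Their signals there were 3534 ± 353 for A_73_P062199 and 2318 ± 232 for A_73_P031561, against 5.33 ± 5.31 and 16.1 ± 5.23 in the light cow. They were at least 171-fold and 112-fold higher in the dark cow, log2 bounds of 7.41 and 6.81 that became 5.26 and 4.83 under normexp. In the light cow the first of these signals was about as large as its error.

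BOLA-DQB (NM_001012676) had 2 probes of that kind and 1 that was bright in both cows. Probe A_73_105688 read 4684 ± 468 in the dark cow and 4.79 ± 4.77 in the light cow, and A_73_P336561 read 3511 ± 351 and 4.47 ± 4.45. Their bounds were 226-fold and 169-fold, or 7.82 and 7.40 on the log2 scale, and 5.98 and 5.64 under normexp. The third, A_73_P052096, was well above background in both cows, at 2193 ± 219 in the light cow and 4088 ± 409 in the dark cow, a log2 ratio of 0.91 ± 0.20. By the main processing, the largest bound and this ratio, for probes of the same transcript, were at least 6.91 log2 units apart. Under normexp these probes lay closer, at 5.98 and 0.87.

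The probes of BOLA-DQB1 (NM_001034668) were bright in both cows and differed by about as much as the third BOLA-DQB probe. A_73_P031816 read 3032 ± 303 in the light cow and 6212 ± 621 in the dark cow, and A_73_P362616 read 1345 ± 135 and 2663 ± 266. Their log2 ratios were 1.04 ± 0.20 and 0.99 ± 0.20, on either side of the 2-fold threshold by less than their error. The 3 DQ probes measured in both cows had a median log2 ratio of 0.99, the 4 others being bounds of 6.81 or more. The BOLA-DQB and BOLA-DQB1 probes that were bright in both cows thus lay near 2-fold. The other 2 BOLA-DQB probes and both BOLA-DQA5 probes were detected in the dark cow only. As for class I, the sequences of these probes and of the DQ alleles of these cows were not compared here. Whether a dim signal in the light cow reflects less RNA or a missing or unlike DQ gene was not tested.

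The other class II genes differed less. BOLA-DRA (NM_001012677), the alpha chain of the DR pair, was slightly higher in the dark cow by each of its 3 probes. Their signals in the light and the dark cow were 9011 ± 901 and 11313 ± 1131 for A_73_107479, 5981 ± 598 and 7976 ± 798 for A_73_P038356, and 723 ± 72.5 and 1098 ± 110 for A_73_P438206. The log2 ratios were 0.34, 0.42 and 0.61, each ± 0.20, or 1.26-fold to 1.53-fold, and they stayed above 0 under all alternatives tried.

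BOLA-DMB (NM_001040481), the beta chain of the peptide exchanger DM, had nearly equal signals in the cows. A_73_P039926 read 614 ± 61.6 in the light cow and 618 ± 62.0 in the dark cow, and A_73_P419141 read 207 ± 21.1 and 204 ± 20.9. Their log2 ratios of 0.018 ± 0.20 and -0.010 ± 0.21 were within the technical error, and the sign of each changed under 1 alternative. The dim probe A_73_P185692, at 22.9 ± 4.89 and 30.1 ± 5.20, had a ratio of 0.40 ± 0.40.

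CD74 (NM_001034735), whose gene lies apart from the MHC, was higher in the dark cow by all of its 5 probes, but 1 of them differed far more than the rest. A_73_P393756 read 1948 ± 195 in the light cow and 8816 ± 882 in the dark cow, a log2 ratio of 2.19 ± 0.20 (4.55-fold). The other 4 probes had ratios of 0.59, 0.40, 0.26 and 0.21, each ± 0.20 or 0.21, with signals between 260 and 2919 in the light cow and between 341 and 3465 in the dark cow. The ratio of A_73_P393756 exceeded those of the others by 1.59 to 1.98 log2 units, and the median over the 5 probes was 0.40, close to the 0.42 of BOLA-DRA.

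Probes of the same transcript disagreed in some of these genes and not in others. Over the 7661 transcripts with at least 2 probes measured on both arrays, the range of the log2 ratio between probes had a median of 0.30 and a 95th percentile of 1.48. Among the 6 MHC transcripts of this kind, the range was 0.049 in BOLA-DQB1, 0.27 in BOLA-DRA and 0.41 in BOLA-DMB. It was 1.98 in CD74, which 196 other transcripts exceeded, 2.04 in BOLA, which 181 exceeded, and 13.17 in JSP.1, which 0 exceeded. JSP.1 was also 1 of 18 transcripts (0.235%) with a measured probe at least 2-fold higher and another at least 2-fold lower. BOLA-DQB is not counted here, since only 1 of its probes was measured in both cows.

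**Figure D3:**
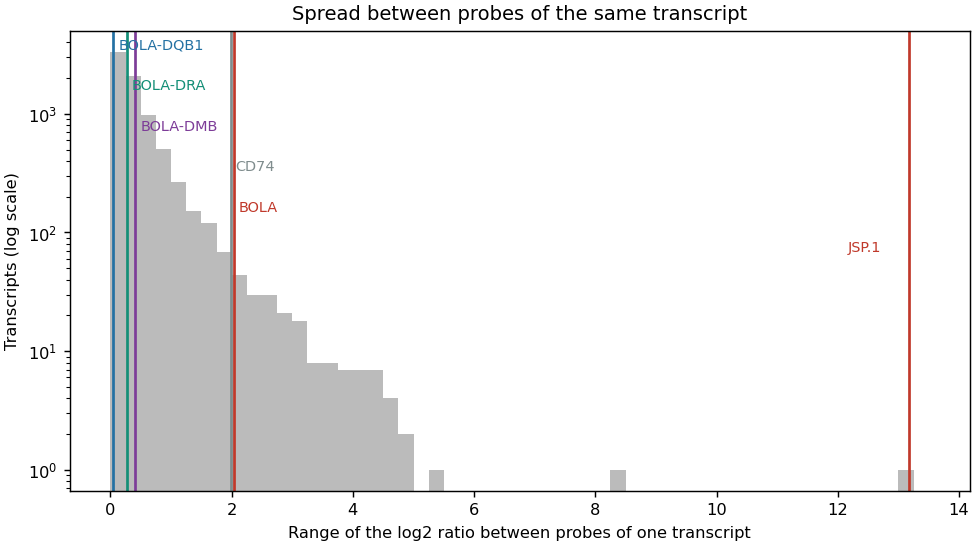
Histogram of the range of the log2 ratio between probes of one transcript, over 7661 transcripts with at least 2 probes measured on both arrays (number of transcripts on a log scale). Vertical lines mark 6 MHC transcripts, of which BOLA-DQB1, BOLA-DRA and BOLA-DMB lie between 0.049 and 0.41, CD74 and BOLA near 2, and JSP.1 at 13.17.

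The MHC probes were also prominent among the largest differences on the arrays. A log2 ratio or bound of at least 5 in favor of the dark cow, a limit set after the values had been seen, was reached by 18 probes, or 0.0491% of the 36630. Of these, 6 were MHC probes, 2 of JSP.1, 2 of BOLA-DQA5 and 2 of BOLA-DQB, and a further 8 carried accessions with no symbol in the RefSeq table used. Among the bounds of probes detected in the dark cow only, the MHC probes held ranks 4 to 8. The lowest MHC ratio, that of A_73_112038 of JSP.1, was rank 428 from the bottom, and those of the lower BOLA probes were ranks 887 and 901. All 3 lay below the 5th percentile of -1.19 over all probes measured in both cows.

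**Figure D4:**
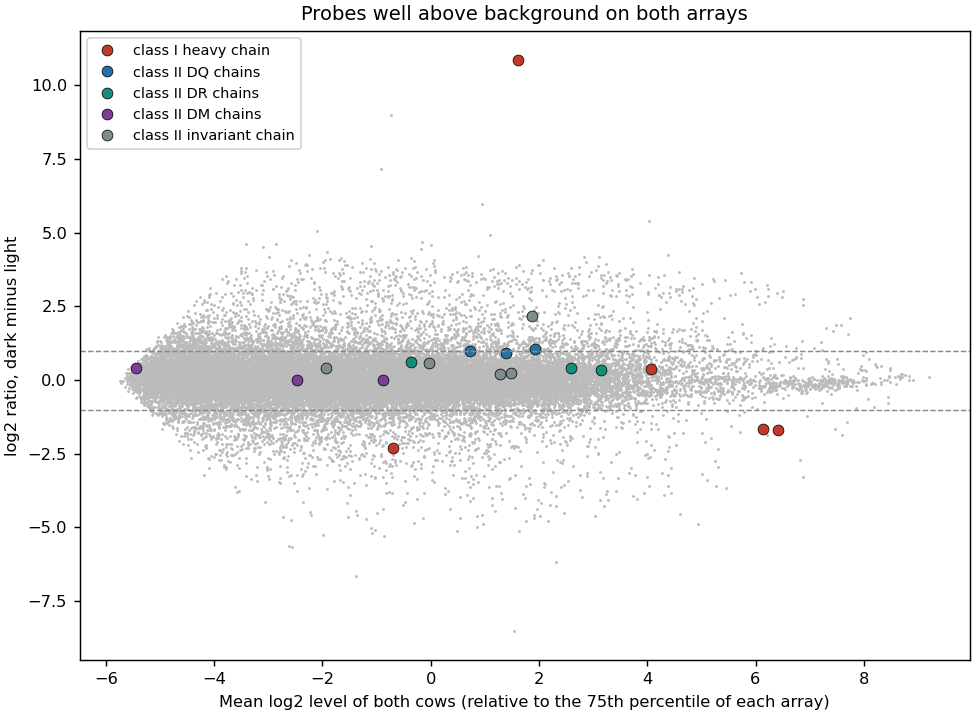
The log2 ratio (dark cow minus light cow) against the mean log2 level of both cows for the 33451 probes well above background on both arrays (gray), with the 19 MHC probes in color and dashed lines at 2-fold. One class I probe, of JSP.1, lies above all other probes at 10.87, and 3 class I probes lie below the lower line.

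Genes that load or regulate MHC molecules were also described. Counted by gene (the median over its measured probes), 9.94% of 8914 named genes with a ratio or bound (median 0.062) were at least 2-fold higher and 6.44% at least 2-fold lower in the dark cow. Of 15 measured genes of class I peptide loading, 0 were at least 2-fold higher and 1 was lower, and their median log2 ratio was 0.18. B2M, the light chain that every class I heavy chain needs, had 4 probes with ratios between 0.37 and 0.54. The peptide transporter TAP1 had probes at 0.71, 0.019 and -0.21. The largest ratios were those of the chaperone CALR (-1.19 over 6 probes), the aminopeptidase ERAP1 (0.87) and the disulfide isomerase PDIA3 (-0.61).

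For class II loading, 0 of 7 genes measured in both cows reached 2-fold in either direction. The protease CTSL had only a lower bound, of 0.78, so that it may have passed 2-fold. With that bound the median log2 ratio was -0.18. The endosomal proteases LGMN and CTSB had ratios of 0.24 and -0.23, and the tetraspanins CD9 and CD63 had ratios of -0.62 and -0.21. Among 7 measured regulators of MHC genes, 0 reached 2-fold, the median was 0.074 and the lowest ratios belonged to NFYA (-0.73) and CREBBP (-0.38). CIITA and NLRC5, the main activators of class II and class I genes, were not analysed here.

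Other genes of the MHC region and MHC-like genes were mixed, with 1 of 10 at least 2-fold higher, 1 lower and a median of 0.55. BOLA-DOB, BOLA-DYA and BOLA-DYB, nonclassical class II chains that stand just before BOLA-DMB among the MHC genes looked up in the RefSeq order, were dim. Their signals in the light and dark cow were 28.5 and 46.1 for the detected probe of BOLA-DOB, 16.8 and 34.0 for BOLA-DYA, and 56.6 and 88.4 for BOLA-DYB, giving log2 values of 0.71, at least 0.71 and 0.65. AZGP1, a secreted protein with a class I fold, was lower in the dark cow (-2.23), and the lipid-presenting CD1E was higher (1.10).

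**Figure D5:**
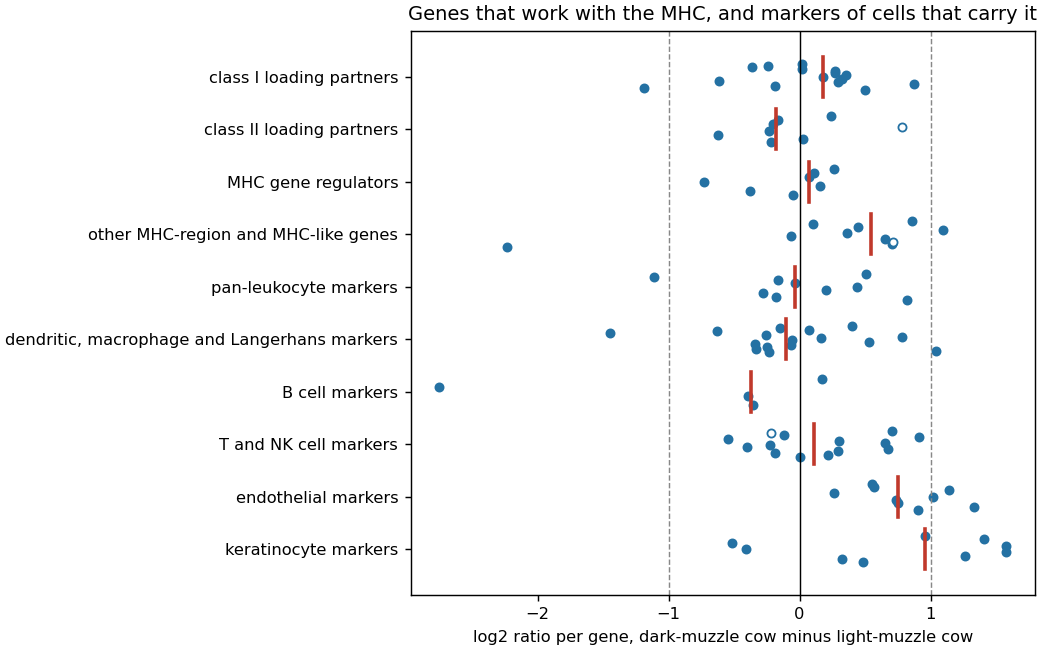
The log2 ratio per gene (dark cow minus light cow) for genes that work with MHC molecules and for cell type markers. Points are genes (open: bound, where 1 cow was not above background), red bars the list medians and dashed lines 2-fold. The medians of the loading, regulator and 4 leukocyte lists lie between -0.37 and 0.18, whereas those of endothelial and keratinocyte markers are 0.75 and 0.96.

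Since class II genes are made mainly by leukocytes, markers of these cells were set beside them. Of 9 measured pan-leukocyte markers, 0 were at least 2-fold higher and 1 was lower in the dark cow, with a median of -0.032, and their summed level in units of the 75th percentile was 9.59 in the light cow and 8.46 in the dark cow. Without LCP1, an actin-bundling protein with a ratio of -1.11, the sum was 6.70 and 7.42, in the other direction. Of 16 markers of dendritic cells, macrophages and Langerhans cells, 1 was higher (CCR7, 1.04) and 1 lower (EPCAM, -1.45, also made by other epithelium), and the median was -0.11, with summed levels of 15.4 and 10.5, but of 7.77 and 7.73 without EPCAM. Of 4 B cell markers 1 was lower, JCHAIN (-2.75), the joining chain of secreted antibodies, and the median was -0.37. CD79A entered that median at -0.39, taken from its bright probe A_73_101543 alone. Its dim probe A_73_P109866 pointed the other way, with signals of 15.7 (light cow, not well above background) and 55.7 (dark cow). That gave a lower bound of 1.43, which the median leaves out. JCHAIN made up most of the summed levels of 39.9 and 7.09, which were 1.44 and 1.13 without it. Of 13 T and NK cell markers measured in both cows 0 reached 2-fold, their median was 0.21 (0.11 with the 1 marker known only by a bound) and the summed levels over the list were 10.6 and 8.81. The genes left out of these sums were those whose level differed most between the cows, picked after the values were seen.

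All matched markers of these 4 lists were detected in at least 1 cow, but 9 dendritic cell and macrophage, 6 B cell, 1 T and NK cell and 2 pan-leukocyte symbols found no probe, PTPRC and CD207 among them. Fewer cells of a type and less RNA per cell cannot be told apart in whole tissue.

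Other cell types differed more between the pieces of muzzle. Of 12 measured skeletal muscle markers, 12 were at least 2-fold higher in the dark cow (median 3.14, summed levels 223 and 1334), and of 10 serous gland markers 6 were lower and 1 was higher (median -2.65, summed levels 315 and 22.4). Endothelial markers had 3 of 9 genes at least 2-fold higher (median 0.75, summed levels 8.39 and 18.0), keratinocyte markers 4 of 9 (median 0.96, summed levels 582 and 928) and melanocyte markers 5 of 8 (median 1.32, summed levels 2.45 and 5.26). The part of these differences in the MHC values was not tested. The keratins KRT5 and KRT14, defining for the epidermis of a muzzle, were detected in both cows, with log2 ratios of -0.52 and -0.41. All other measured keratinocyte markers had ratios above 0, up to 1.58 for KRT15.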

How the data were processed

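Muzzle RNA of 1 HanWoo with a light muzzle and 1 with a dark muzzle was labeled with Cy3 and hybridized to 1 Agilent bovine array each, on a shared slide. The authors deposited, per array, the output of Agilent Feature Extraction 10.7.3.1, whose processed signal is a background-subtracted intensity. They also deposited a table of log2 values, equal to the log2 processed signal minus a constant per array, which served as an alternative. The 13 outlier spots of each array were removed, spots of a probe were averaged, and levels were expressed relative to the 75th percentile. Probes were named by looking up their accession in RefSeq genes of the ARS-UCD2.0 assembly, which matched 20587 of 43639 probes (47.2%). Of that assembly only the order of the MHC genes was used, and no probe was placed by its coordinates, since the array was designed on another. Gene values are medians over probes measured on both arrays, or the largest bound. With 1 array per group no test was made. Named were every MHC probe, B2M and TAP1, and from the other lists at most the 4 genes with the largest ratios, besides KRT5, KRT14, PTPRC, CD207, BOLA-DOB, BOLA-DYA and BOLA-DYB, named for their role, and CTSL, singled out after its value was seen. Members and lists were chosen with earlier results of these data known. Normexp (offset 50, on median pixel signals), quantile and loess (span 0.3) alternatives used R 4.3.3 with limma 3.58.1, while the remaining steps ran in Python 3.11.15 (pandas 2.3.3, numpy 2.4.6). Ratios, bounds and counts were tested on simulated data. One regulator is not reported here by name. The RT-PCR and in situ hybridization of the study were not analysed here.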

Additional observations from a re-analysis of the deposited data

How the results depend on the processing

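The alternatives were quantile and loess normalization, normexp, the 50th percentile or nothing in place of the 75th, no filter on dim probes, only probes detected on both arrays, the authors' log2 table, inclusion of outlier spots, levels raised to the detection limit, limits of 1.5-fold or 3-fold, and genes in place of probes. With only the 19 MHC probes detected on both arrays, the 8 probes at least 2-fold higher became 3, and 3 were lower. Over all 33451 probes so limited, 2820 were higher and 2273 lower. The other 5 higher MHC probes were counted by a bound, being detected in the dark cow only. As genes, 3 of 8 were higher and 1 lower, against 9.94% and 6.44% of all named genes. In that gene count the JSP.1 value of 4.29 is the median of opposing probes at 10.87 and -2.30. The BOLA-DQB value of 0.91, not counted as higher, rests on the 1 probe measured in both cows. Over the other alternatives there were 7 to 12 higher probes and always 3 lower. The limits of 1.5-fold and 3-fold gave 12 and 7 higher, and no count over all probes was made for them. Without a filter on dim probes, and likewise with levels raised to the detection limit, the class I median was -0.65. The DQ median became 7.18 and 6.81 in these settings, since its 4 dim probes then counted. The BOLA-DMB median was -0.0025 under the 50th percentile shift. Of 235 single-probe values under alternatives, 215 moved by less than 0.18 log2 units, the median SD between probes of a transcript, and 0 probes past 2-fold changed direction. Leaving out a replicate was not possible with 1 array per group. Over all probes, normexp gave 2132 higher and 1563 lower, against 3575 and 2626, and no filter on dim probes gave 6018 higher and 3196 lower. Quantile normalization gave 3075 higher and 3126 lower, and loess 3216 and 2970. A signal under about 20.8 in the light cow gives only a bound.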

Other observations

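Some of the largest differences on the arrays came from probes that could not be given a gene symbol here. NM_001105651 had a pair of probes, A_73_108788 and A_73_P035281, both detected in the dark cow only, with log2 bounds of 10.41 and 8.83 that exceeded those of the DQ probes. A_73_P058031, designed to ENSBTAT00000048696, was likewise detected in the dark cow only, with a bound of 10.00. A_73_P107911 (NM_001105487) and A_73_P124801 (XM_601728) were measured in both cows, with log2 ratios of 9.01 and 7.17. Which genes these probes report was not determined.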
